A study of Mus musculus with 5 samples.

Results

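Rax and Lhx2 are 2 of the transcription factor genes that set up the eye field, and they were followed here by name through single cells of the mouse ocular area. They were 2 of the 27998 genes counted. The tissue came from wild-type C57BL/6J embryos with 12, 16, 20, 24 and 26 somites, 1 embryo per stage, with the optic areas of both sides pooled. Droplet sequencing counted RNA molecules per cell as unique molecular identifiers (UMIs). The 5 libraries are numbered by the suffix of their cell barcodes, and the sources used here do not tie a suffix to a stage, so no order of stages is read from them. Each stage had 1 embryo, so stages are not compared by a test, and all intervals are 95% intervals that cover counting error only.

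Rax encodes a paired-type homeodomain protein, and mice that lack it form no optic vesicle. Lhx2 encodes a LIM-homeodomain protein, and in mice without it the optic vesicle forms but does not go on to make an optic cup. Both genes are also known for roles outside the eye, Rax in the hypothalamus and Lhx2 in the cerebral cortex and hypothalamus. LIM-homeodomain proteins act together with LDB cofactors, and LMO proteins can compete for those cofactors.

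Lhx2 (ENSMUSG00000000247) lies on chromosome 2 from 38339281 to 38369733 on the plus strand of GRCm38, and GENCODE lists 7 transcripts of it with 2 to 5 exons. The 250 bases before the first start of Lhx2 (RefSeq promoter, GRCm38.p6, plus strand, chr2:38339031-38339280) are shown so that the stretch upstream of the more widely detected gene can be read beside its counts, with GGGCGG, the GC box, in capitals.
Lhx2: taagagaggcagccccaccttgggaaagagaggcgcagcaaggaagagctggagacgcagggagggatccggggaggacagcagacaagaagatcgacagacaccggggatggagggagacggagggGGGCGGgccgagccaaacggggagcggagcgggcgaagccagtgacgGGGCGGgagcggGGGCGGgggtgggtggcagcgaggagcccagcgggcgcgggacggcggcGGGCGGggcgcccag
This window held 25 CG dinucleotides, against a median of 6 in the same window of 32851 mouse promoters. GGGCGG occurred 4 times when both strands were searched, and 32.7% of the promoters held it. The homeodomain core TAATTA, which reads the same on both strands, had 0 matches there, and 4.84% of the promoters held it.

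Rax (ENSMUSG00000024518) lies on chromosome 18 from 65928277 to 65939787 on the minus strand of GRCm38. GENCODE lists 7 transcripts of Rax with 1 to 4 exons.

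The matrix held 257637891 UMIs in 8194 barcodes, and the libraries had medians from 20713 to 30922 UMIs per barcode. After filtering, 8111 cells remained, from 1279 in library 1 to 1986 in library 3. Among all barcodes, 40 sequences occurred in more than 1 library, with at most 7 shared between any pair of libraries. Doublet calls removed 62 barcodes, a share of 0.757% beside an expected 6%, so further doublets may remain. Cells were clustered without Rax and Lhx2, and clusters were named from other marker genes. The optic vesicle-like class had 1838 cells, the ventral hypothalamus-like class 850 and the other forebrain-like class 735. A further 246 forebrain cells, in a pair of clusters mostly from libraries 2 and 3, could not be given a class name and are called unnamed forebrain cells. In the cluster of 167 cells 5 of the 10 optic vesicle markers were reached but the leading genes held more markers of another class, and in the cluster of 79 cells 3 were reached. The vesicle cluster of library 3 (526 cells) also reached 5, with 3 ventral hypothalamus markers, and that of libraries 1 and 2 (240 cells) reached 6. Neither had an optic vesicle marker 2-fold above the rest of the neuroepithelium, so their name rests on the comparison with other tissues. Kept apart were 802 cells in clusters low in the nuclear RNA Malat1 and 272 cells in mixed clusters with markers of neuroepithelium and of another tissue.

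Rax was found in 3546 barcodes (43.3%) with 19704 UMIs in all and at most 37 in a cell. Lhx2 was found in 4327 barcodes (52.8%) with 30074 UMIs and at most 50 in a cell. Levels of the 2 genes are not set against each other here, because how well the 3′ reads captured each gene was not measured. The number of Rax UMIs per Lhx2 UMI is compared between classes instead.

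Optic vesicle-like cells had the most RNA of both genes, ventral hypothalamus-like cells came next for Rax, and tissues outside the brain had little of either. Levels are given as UMIs per 1000000 UMIs of the class (CPM). Rax stood at 171 CPM (168 to 175) in optic vesicle-like cells, 112 CPM (107 to 116) in ventral hypothalamus-like cells, 66.2 CPM (60.9 to 71.8) in unnamed forebrain cells and 56.3 CPM (53.2 to 59.5) in other forebrain-like cells. Lhx2 stood at 249 CPM (245 to 253) in optic vesicle-like cells, 219 CPM (210 to 230) in unnamed forebrain cells, 159 CPM (154 to 164) in ventral hypothalamus-like cells and 118 CPM (113 to 122) in other forebrain-like cells. The order of the classes thus differed between the genes: the unnamed forebrain cells ranked close to the optic vesicle for Lhx2 and far below it for Rax. The optic vesicle-like class held 27.3% of all UMIs in the kept cells but 60.8% of their Rax UMIs and 58.0% of their Lhx2 UMIs.

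**Figure D1:**
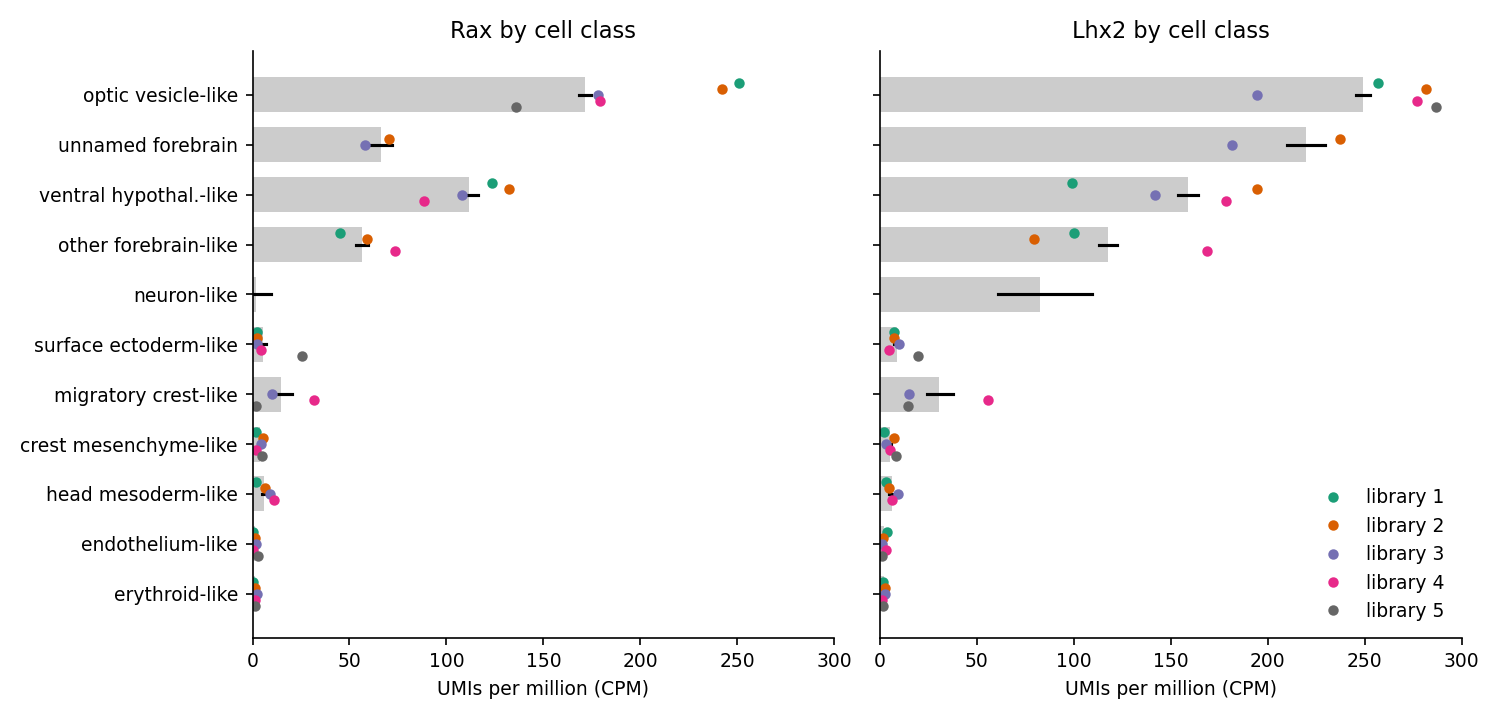
Rax (left) and Lhx2 (right) in CPM for 11 cell classes, as bars for the pooled cells with 95% counting intervals and as points for each library with at least 20 cells of the class. Both genes peak in the optic vesicle-like class, at 171 CPM for Rax and 249 CPM for Lhx2, and the unnamed forebrain cells stand at 219 CPM for Lhx2 but 66.2 CPM for Rax.

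Within the optic vesicle-like class, Rax varied more between libraries than Lhx2. Rax was at 251, 242, 178, 179 and 136 CPM in libraries 1 to 5, so libraries 1 and 2 were high and library 5 was lowest. Lhx2 was at 257, 282, 195, 277 and 287 CPM in libraries 1 to 5, and only library 3 stood below the rest. The number of Rax UMIs per Lhx2 UMI was 0.976 (0.878 to 1.09), 0.859 (0.795 to 0.928), 0.916 (0.880 to 0.953), 0.647 (0.613 to 0.683) and 0.474 (0.454 to 0.494) in libraries 1 to 5. The intervals of libraries 4 and 5 overlapped neither each other nor those of libraries 1, 2 and 3. Each library is 1 embryo, so a difference between embryos, stages or preparations cannot be told apart.

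**Figure D2:**
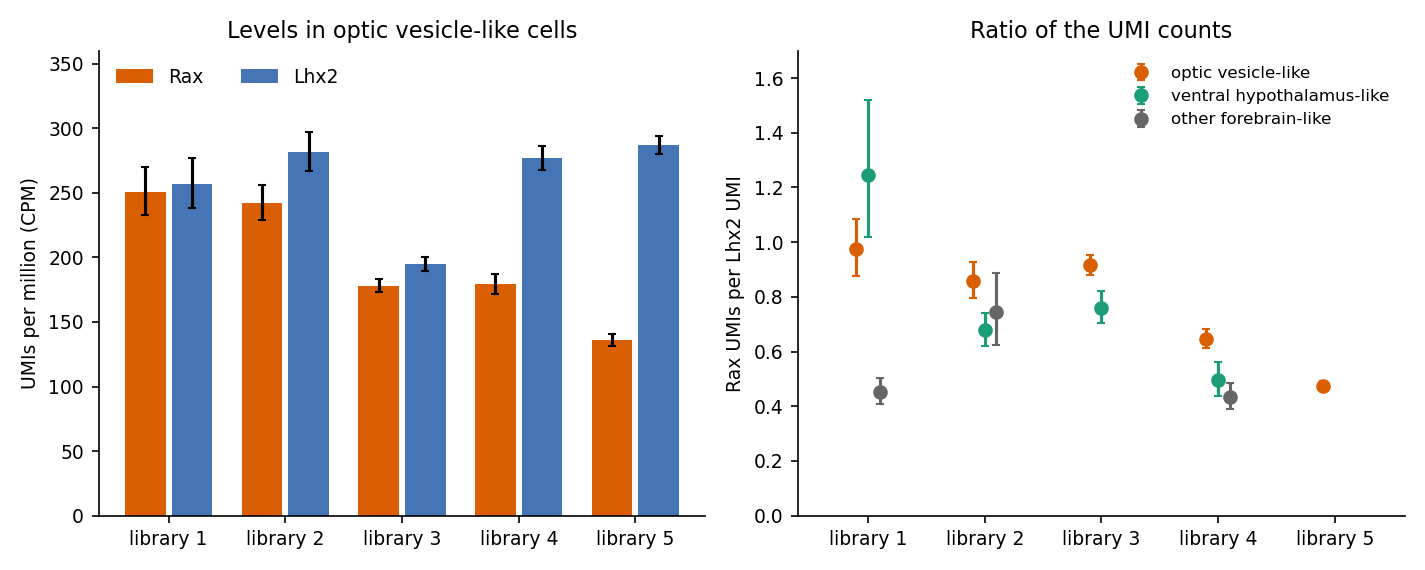
Left: CPM of Rax and Lhx2 in optic vesicle-like cells of each library. Right: Rax UMIs per Lhx2 UMI in 3 classes, for libraries with at least 20 cells of the class; bars are 95% counting intervals. In the optic vesicle-like class the ratio lies between 0.859 and 0.976 in libraries 1 to 3, at 0.647 in library 4 and at 0.474 in library 5.

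The class was not uniform, and its clusters largely followed the libraries, so a cluster may describe its library as much as a region. Libraries 1 and 2 shared a cluster with 245 CPM of Rax and 273 CPM of Lhx2, the highest Rax level of all forebrain clusters. The cluster of library 3 had 178 CPM of Rax and 196 CPM of Lhx2. The cluster of library 4 had 179 CPM of Rax and 274 CPM of Lhx2. Library 5 alone was divided into 4 clusters, which allows a comparison inside 1 embryo.

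In library 5, Rax was high in retina-like cells and low elsewhere in the vesicle, whereas Lhx2 was high throughout. Marker levels here are over all cells of a cluster, which included a few from other libraries, and Rax and Lhx2 levels are over its library 5 cells alone. The retina-like cells (274 in library 5) had 201 CPM (193 to 210) of Rax. Their cluster had all 5 markers of the neural retina list above both the other tissues and the rest of the neuroepithelium, among them the homeobox gene Hmx1 at 80.0 CPM, and also 4 of 7 pigment epithelium markers above the other tissues. Of these, Mitf, Dct and Trpm1 were also above the rest of the neuroepithelium. So were the optic stalk markers Pax2 and Vax2 and the dorsal markers Tbx5, Tbx2, Tbx3 and Aldh1a1, so the cluster was not marked by retina genes alone. The Rpgrip1-led cluster described below and the cluster of library 4 also had all 5 retina markers above the other tissues, but 0 and 1 of them above the rest of the neuroepithelium. The Rpgrip1-led cluster had Pax2, Vax2, Mitf and Trpm1 above that rest. The pigment epithelium-like cells (155), in a cluster with the pigment cell genes Pmel at 195 CPM and Dct at 148 CPM, had 101 CPM (92.2 to 111) of Rax. Cells of a cluster led by Cp and Zic1 (244), with the optic stalk gene Pax2 at 130 CPM, had 76.3 CPM (69.6 to 83.5) of Rax. Cells of a cluster led by Rpgrip1 and Notch2 (122), with Pax2 at 152 CPM, had 58.1 CPM (48.4 to 69.2) of Rax. The intervals of neighbours in this order did not overlap, although those of the last pair lay close, ending at 69.2 CPM and starting at 69.6 CPM. Rpgrip1 and Notch2 were also among the leading genes of a cluster of 113 cranial neural crest mesenchyme-like cells. These genes alone therefore do not name a region of the vesicle.

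Lhx2 ran the other way in the same clusters, over a narrower range. It was at 259 CPM (249 to 268) in retina-like cells, 293 CPM (277 to 309) in pigment epithelium-like cells, 317 CPM (303 to 331) in Cp- and Zic1-led cells and 322 CPM (298 to 346) in Rpgrip1-led cells. Only the retina-like cluster was separate from the others in its interval. Retina-like cells had 1.99 times the Rax level of pigment epithelium-like cells (1.79 to 2.20) and 0.882 times their Lhx2 level (0.826 to 0.943). Against Cp- and Zic1-led cells the ratios were 2.64 (2.39 to 2.92) for Rax and 0.816 (0.770 to 0.865) for Lhx2. Rax UMIs per Lhx2 UMI numbered 0.779 in retina-like, 0.346 in pigment epithelium-like, 0.241 in Cp- and Zic1-led and 0.181 in Rpgrip1-led cells. The Rpgrip1-led cells were also the shallowest, with a median of 14712 UMIs against 32763 in retina-like cells, and the part of depth in their Rax level was not tested.

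**Figure D3:**
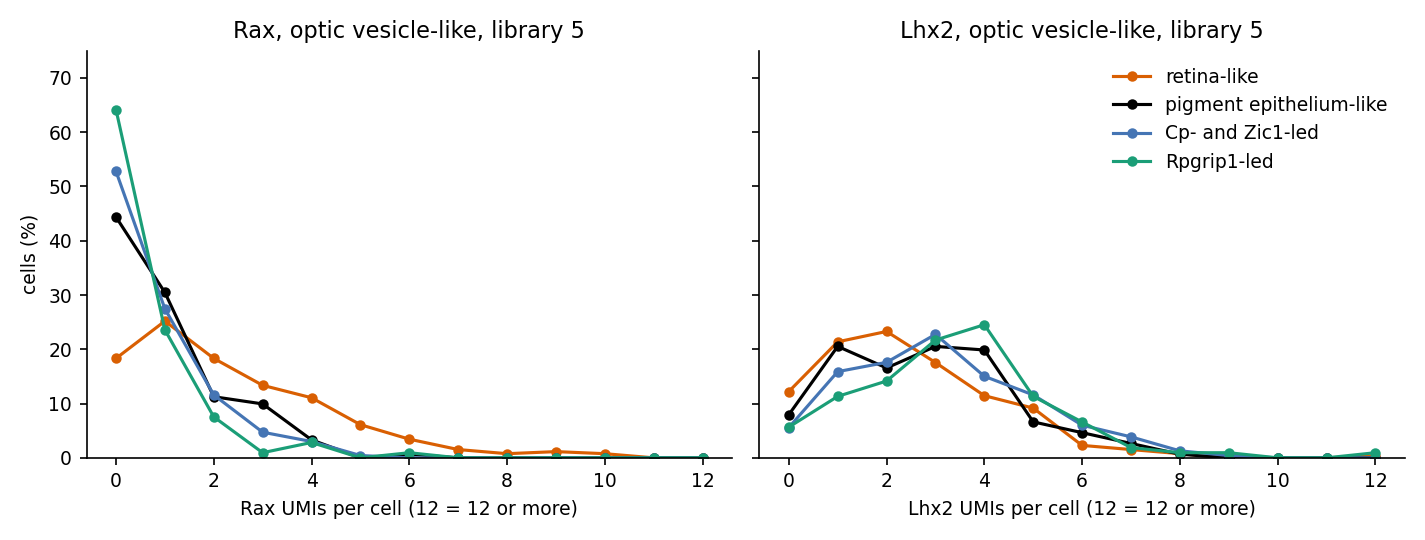
Distribution of UMIs per cell for Rax (left) and Lhx2 (right) in the library 5 cells of 4 optic vesicle-like clusters, after thinning each cell to 10000 UMIs; points are percent of cells. Cells with 0 Rax UMIs are 18.3% of retina-like cells and 64.2% of Rpgrip1-led cells, and cells with 0 Lhx2 UMIs are 12.2% and 5.66% of the same clusters.

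At an equal depth of 10000 UMIs per cell, the library 5 clusters differed both in how many cells had Rax and in how much those cells had. Rax was detected in 81.7% of retina-like cells (76.5 to 86.2%), 55.6% of pigment epithelium-like cells (47.3 to 63.7%), 47.2% of Cp- and Zic1-led cells (40.7 to 53.8%) and 35.8% of Rpgrip1-led cells (26.8 to 45.7%). Cells with Rax held 2.84, 1.80, 1.67 and 1.63 Rax UMIs on average in the same order, and 24.8%, 3.97%, 3.43% and 3.77% of the cells held 4 or more. Lhx2 was detected in 87.8%, 92.1%, 94.4% and 94.3% of the cells in that order. The variance of Rax UMIs over their mean, which is close to 1 for counting noise alone, was 2.10 over the optic vesicle-like cells of library 5, and that of Lhx2 was 1.24. Rax was therefore the more uneven of the 2 genes from cell to cell in this library.

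**Figure D4:**
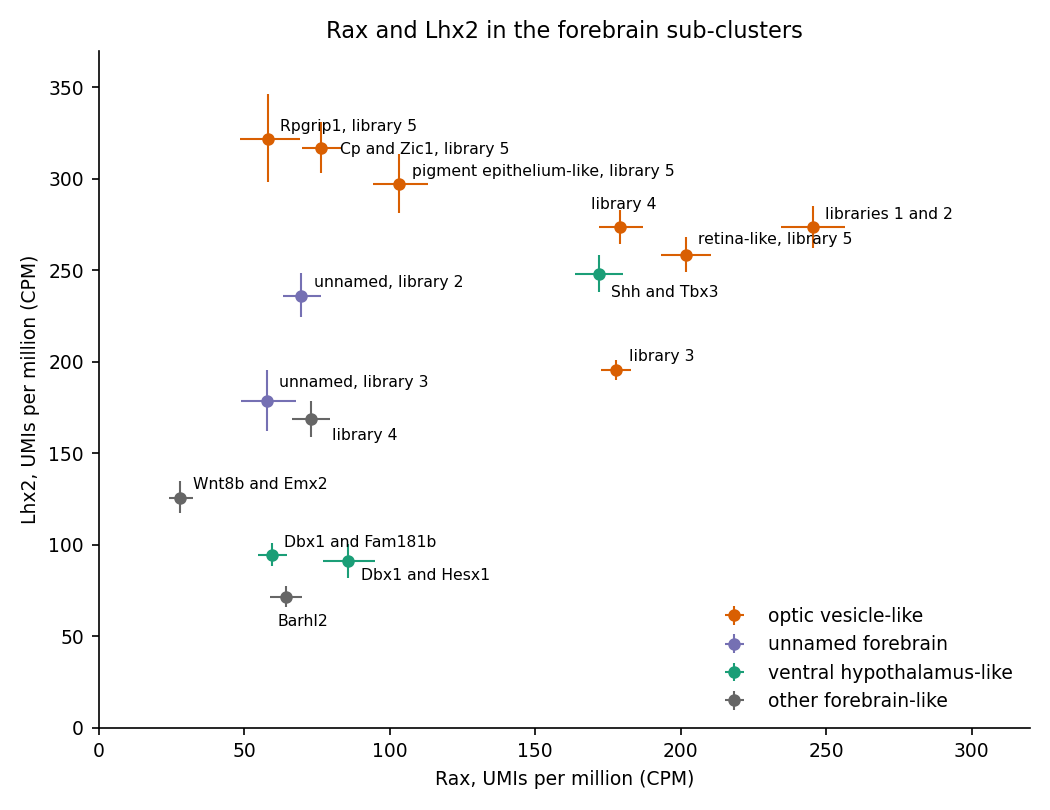
Rax CPM (horizontal) and Lhx2 CPM (vertical) in 15 forebrain clusters over all cells of each cluster, coloured by class and labelled by leading genes or library, with 95% counting intervals. The retina-like cluster of library 5 sits at 202 CPM of Rax near the clusters of the other libraries, and the remaining clusters of library 5 sit between 58.1 and 103 CPM of Rax at the highest Lhx2 levels.

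The ventral hypothalamus-like class held 1 cluster whose levels of both genes were close to those of the optic vesicle-like class. This cluster (375 cells, with 137, 155 and 78 from libraries 2, 3 and 4) was led by Shh, a secreted ventral signal, and by Tbx3 and Fgf10, and it had 172 CPM (164 to 180) of Rax and 248 CPM (238 to 258) of Lhx2. The same cluster had the highest levels of the eye-field genes Six6, at 463 CPM, and Six3, at 338 CPM, among the 15 forebrain clusters, but 14.2 CPM of Pax6. Both other ventral clusters were led by Dbx1. They had 85.7 and 59.5 CPM of Rax and 91.0 and 94.5 CPM of Lhx2, and in each of them Rax differed between libraries. The first, which Hesx1 also led, had 120 CPM of Rax in library 1 and 61.0 CPM in library 2, with 87.2 and 95.4 CPM of Lhx2 in the same libraries. The second had 72.6 CPM of Rax in library 3 and 28.9 CPM in library 4, with 84.9 and 130 CPM of Lhx2.

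Other forebrain-like cells were also divided. A cluster led by Barhl2, a diencephalic gene, had 64.3 CPM of Rax and 71.4 CPM of Lhx2. A cluster led by Wnt8b and Emx2, mostly from library 1, had 28.1 CPM (24.1 to 32.5) of Rax, the lowest of the 15 forebrain clusters, with 126 CPM of Lhx2. Its ratio was 0.223 Rax UMIs per Lhx2 UMI, and its interval overlapped that of Cp- and Zic1-led cells in the vesicle, at 0.241. The third cluster (210 cells, 201 of them from library 4) had 72.9 CPM (66.6 to 79.6) of Rax and 169 CPM of Lhx2, a ratio of 0.432. Unnamed forebrain cells had 0.302 Rax UMIs per Lhx2 UMI (0.274 to 0.331), and globin RNA was among the leading genes of their cluster in library 2.

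Optic vesicle-like cells exceeded other forebrain-like cells in both genes, a comparison that leaves out the ventral and the unnamed forebrain cells. Classes were compared by a rule of size: at least 20 CPM on the higher side, a ratio of 2 or more whose interval excludes 1, and the same direction in every library with at least 20 cells on both sides. The levels and ratios of the rule were pooled over all libraries. The vesicle side thus also held libraries 3 and 5, which each had fewer than 20 other forebrain-like cells. Rax was 3.05 times as high (2.87 to 3.23), with ratios of 5.54, 4.10 and 2.44 in libraries 1, 2 and 4. Lhx2 was 2.12 times as high (2.03 to 2.21), with ratios of 2.57, 3.55 and 1.64 in the same libraries. Lhx2 fell under the ratio of 2 when library 1, 2 or 5 was left out, at 1.83, 1.96 and 1.96, and at 1.69 when the unnamed forebrain cells were counted as other forebrain. Rax passed in each of these cases. Paired within the 3 libraries, the mean log2 ratio was 1.93 ± 0.60 (SD, n = 3) for Rax and 1.30 ± 0.56 (SD, n = 3) for Lhx2, higher in 3 of 3 libraries. An exact two-sided sign-flip permutation test gave p = 0.25 for each gene, the smallest that 3 libraries allow, so this pairing cannot reach 0.05. The libraries are single embryos of different stages and not replicates of 1 condition, so the SD also holds differences between stages.

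Against the ventral hypothalamus-like class as a whole neither gene reached a ratio of 2. Rax was 1.54 times as high in the optic vesicle (1.47 to 1.60) and Lhx2 1.57 times (1.51 to 1.63). The direction was the same in each of libraries 1 to 4, where Rax ratios ran from 1.65 to 2.03 and Lhx2 ratios from 1.37 to 2.59, both highest in library 1. The pooled Rax ratio lay below those of libraries 1 to 4. The mean log2 ratio within these libraries was 0.91 ± 0.14 (SD, n = 4) for Rax and 0.75 ± 0.42 (SD, n = 4) for Lhx2, higher in 4 of 4. The exact two-sided sign-flip permutation test gave p = 0.125 for each gene, the smallest that 4 libraries allow, and 0.25 after adjustment over the 4 paired comparisons made. With coarser clustering the Rax ratio turned to 0.971. The ventral class mixed the Shh- and Tbx3-led cluster, at 172 CPM of Rax and 248 CPM of Lhx2, with lower clusters. The Dbx1-led clusters had 85.7 and 59.5 CPM of Rax and 91.0 and 94.5 CPM of Lhx2. Ratios of the vesicle to single ventral clusters were not computed.

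Neuron-like cells had Lhx2 with almost no Rax. The 32 cells held 49 Lhx2 UMIs, or 82.5 CPM (61.1 to 109), and 1 Rax UMI, or 1.68 CPM (0.0426 to 9.38). The LIM-homeodomain relative Isl1, a gene of early neurons that is also on the marker list of this class, was at 365 CPM in them, and Lhx9 was at 10.1 CPM.

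Outside the nervous system both genes were low in most classes, and higher in migratory neural crest-like cells. Endothelium-like cells had 1.39 CPM of Rax and 1.93 CPM of Lhx2, and erythroid-like cells had 1.20 and 1.94 CPM of the same genes. Cranial neural crest mesenchyme-like cells had 3.65 CPM of Rax and 5.21 CPM of Lhx2, and head mesoderm-like cells had 6.08 and 5.99 CPM of the same genes. Surface ectoderm-like cells had 5.32 CPM of Rax and 8.89 CPM of Lhx2. Rax there was at 2.28, 2.56, 2.36, 4.26 and 25.5 CPM in libraries 1 to 5, so library 5 stood apart. In that library, 4 of 67 ectoderm-like cells held 29 of the 35 Rax UMIs, and these 4 cells also held 17 Lhx2 UMIs. Their median total was 26711 UMIs against 17863 in all ectoderm-like cells of library 5. The 90 migratory neural crest-like cells had 14.8 CPM of Rax (10.5 to 20.2) and 30.3 CPM of Lhx2 (24.1 to 37.8). Lhx2 was found in 20 of them, and 9 cells held 65 of the 80 Lhx2 UMIs. In library 4, 4 of 25 of these cells held 21 of 25 Rax UMIs and 34 Lhx2 UMIs, with a median of 52035 total UMIs against 27972. The part of doublets in these cells was not tested.

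The clusters kept apart also held both genes. Cells low in Malat1 had 99.9 CPM of Rax and 106 CPM of Lhx2, and mixed cells had 96.7 CPM of Rax and 144 CPM of Lhx2. The mixed cells had a median of 55988 UMIs, against 31283 in optic vesicle-like cells.

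Whether the 2 genes occur in the same cells was asked at 10000 UMIs per cell, because detection depends on depth. In optic vesicle-like cells Rax was detected in 69.9% (67.7 to 72.0%) and Lhx2 in 89.9% (88.4 to 91.3%) of 1795 cells deep enough. Both were detected in 62.7% (60.4 to 65.0%), beside a product of the 2 shares of 62.9%. The odds ratio of co-detection was 0.930, and from 0.659 to 1.30 in the single libraries. It was 1.40 with finer clustering (Leiden resolution 2) and 4.05 without thinning. Pooled over this class, then, the share with both genes lay within counting error of the product at this depth. The class mixed clusters of different levels. Within its clusters the Pearson correlation of log2(UMIs + 1) per cell ran from -0.0526 in the retina-like to 0.128 in the pigment epithelium-like cluster. In the pigment epithelium-like cluster 53.9% of cells had both genes, 2.60% Rax only, 38.3% Lhx2 only and 5.19% neither. In the Rpgrip1-led cluster these shares were 32.1%, 3.77%, 62.3% and 1.89%. Odds ratios within the vesicle clusters are not given, so the cluster odds ratios of other classes below have no counterpart here.

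In the ventral hypothalamus-like and other forebrain-like classes the genes were found together more often than the product. In ventral hypothalamus-like cells 38.5% had both (35.1 to 41.9%) beside a product of 29.9%, with an odds ratio of 4.73 and ratios from 2.11 to 7.60 in libraries 1 to 4. That odds ratio was 1.78 at a mitochondrial limit of 5%, 2.38 at 5000 UMIs per cell and 14.6 without thinning. In other forebrain-like cells 22.0% had both (19.0 to 25.2%) beside a product of 15.3%, with an odds ratio of 3.83 and ratios from 2.48 to 8.76 in libraries 1, 2 and 4. It was 2.27 with finer clustering, 2.37 with at least 2 UMIs asked for and 9.14 without thinning. These classes also mixed clusters of different levels. Within the ventral clusters the odds ratio was 2.61 in the Shh- and Tbx3-led and 3.45 and 3.93 in the Dbx1-led ones. Within the other forebrain clusters it was 8.13 in the Barhl2-led, 2.72 in the Wnt8b- and Emx2-led and 2.48 in the third. The correlation of log2(UMIs + 1) ran from 0.234 to 0.346 within the ventral clusters and from 0.166 to 0.448 within the other forebrain clusters. It was 0.0802 and 0.115 within the pair of unnamed forebrain clusters, for which odds ratios are not given. In the second of that pair (79 cells) 36.7% had both genes, 1.27% Rax only, 50.6% Lhx2 only and 11.4% neither. Background detection was 1.19% for Rax and 0.794% for Lhx2 in erythroid-like cells, whose median depth was 42552 UMIs, and 1.05% and 1.84% for the same genes in endothelium-like cells, with a median of 28137.

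**Figure D5:**
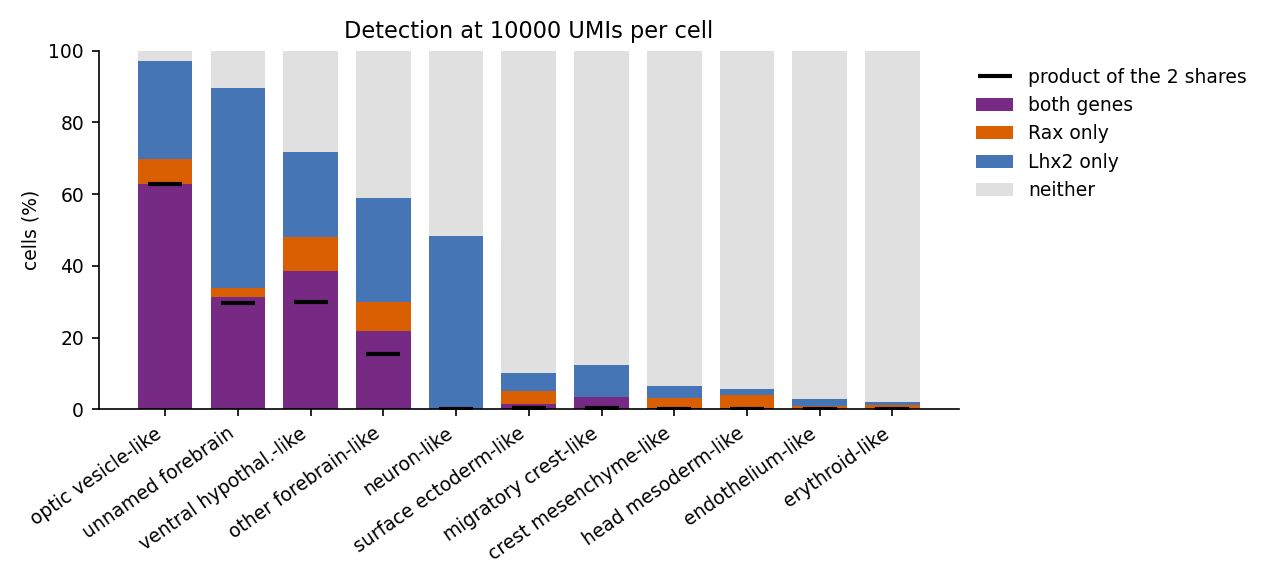
Percent of cells with both genes, Rax only, Lhx2 only or neither in 11 classes after thinning to 10000 UMIs per cell; black marks give the product of the 2 detection shares. The mark meets the share with both genes in the optic vesicle-like class (62.9% and 62.7%) and lies below it in the ventral hypothalamus-like class (29.9% and 38.5%).

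At full depth almost every optic vesicle-like cell had Lhx2, with or without Rax. Rax was then detected in 87.5% of the 1838 cells, Lhx2 in 98.6% and both in 86.6%. Of the cells with Rax, 99.0% had Lhx2, close to its share of 98.6% in all cells of the class. Most cells without Rax had Lhx2 too. There were 16 cells with Rax only, 221 with Lhx2 only and 9 with neither.

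Over the 3 neuroepithelial classes at full depth, 79 cells had Rax without Lhx2 and 592 had Lhx2 without Rax, with medians of 22414 and 23489 UMIs in the same order. Of the Rax-only cells, 20.3% were optic vesicle-like, 41.8% ventral hypothalamus-like and 38.0% other forebrain-like. Of the Lhx2-only cells, 37.3% were optic vesicle-like, 27.5% ventral hypothalamus-like and 35.1% other forebrain-like. Libraries 1 to 5 gave 21, 17, 14, 14 and 13 Rax-only cells and 137, 75, 87, 111 and 182 Lhx2-only cells. Ratios between these groups are pooled over classes and libraries, so they also hold differences in this make-up. By the size rule 6 genes were higher in Rax-only cells (0.115% of 5196 genes with at least 20 CPM on either side) and 12 were lower (0.231%), leaving out Rax and Lhx2. Library 1 alone had at least 20 cells on both sides, so the direction rested on it.

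Hesx1, a paired-type homeobox gene of the anterior neural plate, was at 34.9 CPM in Rax-only and 5.77 CPM in Lhx2-only cells, a ratio of 6.04 (4.28 to 8.48). Foxa2, a floor plate gene, had a ratio of 2.85, Foxb1 of 2.65, the ventral homeobox gene Nkx2-9 of 2.60, Pou3f2 of 2.15 and Tagln3 of 2.08. Among the genes lower in Rax-only cells, Vax2, an optic vesicle gene of the ventral side, had a ratio of 0.152, the signal gene Fgf8 of 0.221, Pax2 of 0.231, Dmrta2 of 0.382 and the retinoic acid enzyme gene Aldh1a3 of 0.491. Outside the lists, Apoe, Zic1, Akap12, Pcnt, Paip2b and Fuca1 had ratios from 0.417 to 0.497.

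These calls depended on how the split was made. With the limit lowered to 10 cells per side, so that all 5 libraries counted, 0 genes were higher and 7 lower, among them Vax2, Pax2, Apoe, Pcnt, Paip2b and Fuca1. With cells thinned to 10000 UMIs before the split, 266 Rax-only and 891 Lhx2-only cells gave 1 higher gene, Aldh1a1, and 3 lower, among them Wnt8b and Zic1.

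The other genes of the eye field were described beside the members in the class comparison, although some of them also named the classes. Of 5147 genes with at least 20 CPM on either side, 46 were higher in optic vesicle-like than in other forebrain-like cells (0.894%) and 42 lower (0.816%), and Rax and Lhx2 were among the higher. Of the eye-field list, 2 of 7 measured genes were higher. Six6 was at 257 CPM in optic vesicle-like and 26.0 CPM in other forebrain-like cells, a ratio of 9.86 (9.06 to 10.7), and Six3 had a ratio of 2.84. The other 5, Pax6, Otx2, Otx1, Sox2 and Nr2e1, had ratios from 0.600 to 1.18, and the median ratio of the list was 0.814 beside 0.927 over all genes. Six6 and Six3 are markers of the optic vesicle-like class.

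Of the optic vesicle patterning genes, 7 of 10 measured were higher in the vesicle and 0 lower. The other 3, Bmp7, Aldh1a1 and Hmx1, had ratios from 1.96 for Bmp7 to 167 for Hmx1. Aldh1a1, at 67.5 against 1.25 CPM, and Hmx1 met the size but not the same direction in every library compared. Aldh1a3 was at 138 CPM in optic vesicle-like and 4.21 CPM in other forebrain-like cells, and Mab21l2, which is required for eye growth in mice, was at 117 and 2.78 CPM in the same classes. The pigment regulator Mitf had a ratio of 21.1, Vax2 of 18.7, Pax2 of 11.6, Bmp4 of 36.1 and Fgf15 of 2.90. Mitf, Vax2, Pax2, Hmx1 and Aldh1a1 are also class markers.

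Of the 11 LIM-homeodomain relatives of Lhx2, Lhx5 alone reached 20 CPM on either side, and it was lower in the vesicle, at 12.5 CPM against 93.7 CPM in other forebrain-like cells, a ratio of 0.133. Lhx5 is a marker used for the diencephalon. Of the LIM-domain binding partners and competitors 5 were measured and 0 were called, with ratios from 0.887 for Lmo3 to 1.13 for Ssbp3. Ldb1, the cofactor of LIM-homeodomain proteins, was at 56.5 CPM in optic vesicle-like and 54.3 CPM in other forebrain-like cells. Among the paired-type relatives of Rax, Prrx2 was higher, at 31.6 CPM in the vesicle against 12.9 CPM in other forebrain, and Otx1 and Otx2 had ratios of 0.612 and 0.814. Of the telencephalic and dorsal genes Wnt8b and Emx2, both class markers, were lower, with ratios of 0.0496 and 0.0732, and 4 others had ratios from 0.401 to 0.635. Of 3 hypothalamic and ventral genes measured, Six3 alone was called. Fgf8, at 3.94 CPM in the vesicle against 20.8 CPM, a ratio of 0.190, met the size but not the same direction in every library compared. The same held for Fezf1 of the telencephalic and dorsal genes, with a ratio of 0.401.

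Against the ventral hypothalamus-like class, 61 of 5096 genes were higher in the vesicle (1.2%) and 70 lower (1.37%). Of 9 eye-field genes Pax6, the master regulator of eye development, was higher, at 256 CPM in optic vesicle-like and 44.6 CPM in ventral cells, a ratio of 5.74 (5.39 to 6.11). Hesx1 was lower, at 3.40 against 30.5 CPM. The other 7, Six3 and Six6 included, had ratios from 0.342 for Tbx3 to 1.27 for Six6. The LMO competitor Lmo1 was lower in the vesicle, at 17.7 CPM against 56.4 CPM in ventral cells, and it was the only called gene of 6 measured in its list. Patterning genes were higher in 6 of 10 cases, among them Bmp7 with a ratio of 2.63. The ventral genes Nkx2-1, Nkx2-2, Nkx2-9 and Shh, which name the ventral class, were lower, with ratios from 0.0343 to 0.153.

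Antisense genes overlap both members. Raxos1, which overlaps Rax, had 98 UMIs in all kept cells. Gm27197, inside Lhx2, had 880 UMIs and was at 7.79 CPM in optic vesicle-like and 2.96 CPM in other forebrain-like cells. Gm13584, also inside Lhx2, had 0 UMIs. The strand setting of the counting is not given in the sources used here. Whether reads of an antisense partner entered the counts of a member was not checked.

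Rax was the gene second most like Lhx2, and Lhx2 the gene most like Rax, across classes. Likeness was the Pearson correlation of log2(CPM + 5) over 38 units of 1 class in 1 library with at least 30 cells, among 8121 genes. It is a description, since units share libraries and embryos and most of the range lies between neural and other tissues. The correlation of Rax with Lhx2 was 0.970, beside a median of 0.215 over all genes with Rax and 0.225 with Lhx2. After Lhx2, the genes most like Rax were Amer2 (0.945), Mir124-2hg (0.944), Dpysl4 (0.924), Nrxn2 (0.921), Rmst (0.917), Sox3 (0.913) and Ildr2 (0.907). Those most like Lhx2 were Mir124-2hg (0.972), Rax, Amer2 (0.969), Sox3 (0.962), Ildr2 (0.952), Rmst (0.950), Ptprz1 (0.947) and Dpysl4 (0.941). Sox3 is a neural progenitor gene and one of the markers of neuroepithelium. Within the 14 neuroepithelial units the correlation of Rax with Lhx2 was 0.637, and Lman1 (0.827) was then most like Rax and Efna5 (0.894) most like Lhx2. Lhx2 then ranked 26th for Rax and Rax 96th for Lhx2, and the 8 nearest genes of either member held 0 of those above. By Spearman correlation over the 38 units Lhx2 ranked 4th for Rax and Rax 39th for Lhx2, with 2 and 3 of the 8 nearest genes shared. With log2(CPM + 1) they ranked 1st and 4th, with 8 and 7 shared.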

How the data were processed

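The deposited matrix holds raw UMI counts per gene and barcode, not normalised by the authors as far as the values show. Per the labels' protocols, libraries were made with version 3 of the 10x Genomics 3′ kit. The submitters' processing notes name Cell Ranger, mm10 and GRCm38. Its version and strand setting were not found in those sources.

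A cell needed 1000 genes or more and a mitochondrial share of no more than 10%, and Scrublet calls at an expected 6% were removed per library. Clustering used scanpy 1.11.5 (2000 variable genes without Rax and Lhx2, 30 principal components, 15 neighbours, Leiden resolution 1), and the neuroepithelium was clustered again. A class name needed at least 3 markers at 2-fold higher CPM than other tissues and leading genes with no more markers of another class than of its own. Optic vesicle-like needed 5 of 10, and other forebrain classes also 2 markers above the rest of the neuroepithelium. The scoring was set after the data were seen. The members, marker lists and tests were chosen with earlier results of these data known.

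CPM was computed from summed counts, with exact Poisson intervals. Ratios carry exact binomial intervals and shares Clopper-Pearson intervals (95%). Thinning drew 10000 UMIs per cell without replacement. Genes named are both members, list genes passing the size rule, the 10 most extreme genes on each side of the Rax-only comparison and the 8 most alike per member. The code was tested on simulated data. Alternatives covered doublets, clustering, thinning, libraries and thresholds. All 5 stages have 1 sample, and the libraries were left unassigned. Of columns with per-sample values, 0 were left unused. Sequence was taken from RefSeq's promoter table, which held Lhx2, and none is printed for Rax. Results for a few genes that pass the rule are not reported here.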

Additional observations from a re-analysis of the deposited data

How the results depend on the processing

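Stages could not be paired, since each has 1 sample and libraries are not tied to stages. With classes paired by library, the geometric mean ratio to other forebrain was 3.81 for Rax and 2.47 for Lhx2, and to the ventral class 1.88 and 1.68. Rax stayed higher in optic vesicle-like than in other forebrain-like cells in each alternative (2.48 to 3.81 times). Its ratio was 3.54 at Leiden resolution 0.5 and 2.75 with clusters low in Malat1 counted in, where no library had 20 cells of both classes, so the size rule could not be met. Lhx2 was at 3.25 and 2.66 there. Lhx2 was at 1.86 at Leiden resolution 2, at 1.69 with unnamed forebrain cells counted as other forebrain, and between 1.83 and 2.55 with a library left out. At resolution 0.5 Rax over the ventral class was 0.971. The 88 genes called between vesicle and other forebrain became 143 with Rax and Lhx2 in the clustering, 541 with no CPM minimum and 44 at a minimum of 50 CPM. The 18 genes of the Rax-only comparison became 45 at resolution 0.5, 61 with libraries weighted equally, 277 with no CPM minimum, 5 at 50 CPM, 4 with the thinned split, 7 with 10 cells per side, and 11 to 29 with a library left out. It gave no value with doublet calls kept, at resolution 2, with the members in the clustering, with low-Malat1 clusters counted in, or without library 1, since no library then had 20 cells on both sides. The vesicle share with both genes was 54.2% at resolution 0.5, 59.2% with low-Malat1 clusters, 68.9% with equal weights, 86.6% unthinned, 36.0% at 5000 UMIs, 29.9% at 2 UMIs or more, and 60.5 to 69.2% with a library left out. The odds ratio in the vesicle was 1.40 at resolution 2 and 4.05 unthinned. In the ventral class it was 1.78 at a mitochondrial limit of 5%, 14.6 unthinned and 2.38 at 5000 UMIs. In other forebrain it was 2.27 at resolution 2, 9.14 unthinned and 2.37 at 2 UMIs or more. The correlation of Rax with Lhx2 was 0.870 by Spearman and 0.637 within neuroepithelium. The unnamed forebrain, the 10-cell and the paired alternatives were chosen after seeing the data. Beyond fewer cells or fewer genes, the cause was not tested.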
